A study of Mus musculus with 8 samples.

Results

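The development of the Notum+/+ (wild-type) mouse molar from the cap stage, embryonic day (E) 14.5, to the bell stage, E16.5, was described from the RNA of whole tooth germs. Of 54532 genes listed, 17769 were compared: every gene with a mean above 0.3 FPKM (fragments scaled to gene length and library size) over the 4 Notum+/+ libraries, leaving out 646 genes of chromosomes X and Y that also reached this level. The series holds 8 libraries, 2 for each of Notum+/+ and Notum-/- embryos at E14.5 and at E16.5, and the comparison rests on 2 Notum+/+ libraries at each age. Maxillary and mandibular molar germs were taken from littermates of crosses on a C57BL/6N background, and pooled germs made up each library, so a value is a mean over several embryos. Notum-/- embryos, which lack the secreted Wnt inhibitor Notum throughout the body, enter only as a side-by-side comparison. The 4 Notum+/+ libraries held 24000989 to 25985417 reads on listed genes, so that a gene of 1 kb at 1 FPKM rested on 24.1 to 26.3 reads. A difference passed at a limma adjusted p under 0.05, and the larger differences were also counted at more than 2-fold. An exact permutation test on 2 and 2 libraries cannot go below a two-sided p of 0.333 and was not run, and p-values measure only the spread between the 2 pools of an age.

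At the cap stage the dental epithelium folds around the condensed dental papilla, and a cluster of non-dividing epithelial cells, the primary enamel knot (EK), secretes Shh, Fgf, Bmp and Wnt signals. By the bell stage secondary EKs mark the sites of future cusps, the inner dental epithelium begins the path to enamel-forming ameloblasts, and the outermost papilla cells begin the path to dentin-forming odontoblasts. The surrounding dental follicle and jaw bone, and the oral epithelium above the germ, mature over the same days.

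The label molar germ held for the defining markers. The epithelial keratins Krt14 and Krt17 stood at 131 to 420 FPKM and 255 to 636 FPKM over the 4 libraries, and the dental mesenchyme regulators Barx1, Msx1 and Pax9 at 165 to 206, 57.2 to 132 and 30.6 to 40.9 FPKM. Notum itself, read in every library, was at 2.65 and 1.85 FPKM at E14.5 and at 9.33 and 9.57 FPKM at E16.5, 4.19 times higher (log2 fold change 2.04 ± 0.18 (SE), limma adjusted p = 0.0023). The pools differed in sex composition. The Y-linked Ddx3y was at 6.26 and 6.96 FPKM in the E14.5 libraries and at 0 in both E16.5 libraries, and Xist was at 87.5 and 92.6 FPKM at E14.5 and at 111 and 107 FPKM at E16.5. Age and sex composition cannot be told apart in these 4 libraries, also for autosomal genes, nor can age and how much neighbouring tissue came away with the germ. In bulk tissue, fewer cells of a type and less RNA per cell cannot be told apart either.

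Of the 17769 genes, 7145 (40.2%) passed, 3841 (21.6%) of them as higher and 3304 (18.6%) as lower at E16.5. Over 2-fold, 1397 (7.86%) were higher and 450 (2.53%) were lower. The libraries of the ages did not overlap for 37.1% of genes in the higher and 36.9% in the lower direction, passed or not. The count past the adjusted p rested on both E16.5 libraries: it was 893 without E16.5 replicate 1 and 850 without replicate 2, of 7145 with all 4, and 4776 and 3859 without E14.5 replicate 1 and 2. Over 2-fold, 668 and 641 genes passed without E16.5 replicate 1 or 2, of 1847. On the TPM scale, which sets the sum over all genes equal, the median gene moved by -0.09 on the log2 scale and the split turned to 3140 higher and 4648 lower, whereas over 2-fold it was 1226 higher and 558 lower. On both scales more of the differences over 2-fold were higher than lower at E16.5, and more of the smaller ones lower than higher.

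**Figure D1:**
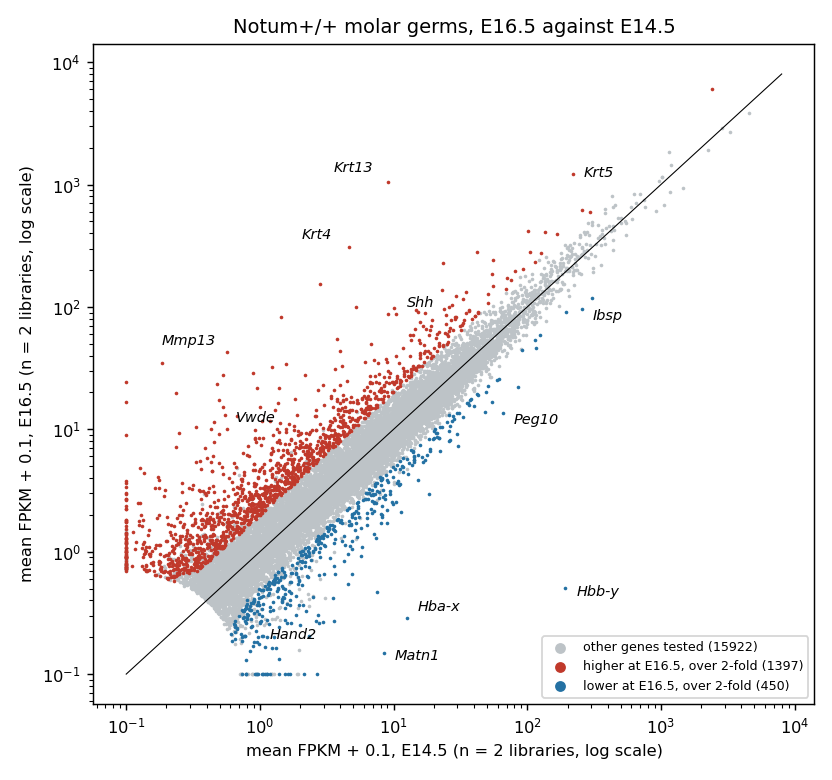
Mean FPKM + 0.1 of each of the 17769 genes at E14.5 (horizontal) and E16.5 (vertical) in Notum+/+ molar germs, both axes logarithmic, n = 2 libraries an age. Red points passed the adjusted p and were over 2-fold higher at E16.5 (1397 genes), blue points over 2-fold lower (450 genes), and grey points are the other genes tested, with the line of equal values in black.

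Differences moved with gene length. Among 13813 protein-coding genes in 8 groups by summed exon length, the median log2 fold change fell from 0.32 in the shortest group (27 to 1835 bases) to -0.17 in the longest (9025 to 123179 bases), against 0.04 and 0.00 in Notum-/- germs over the same ages. The share of genes that passed as over 2-fold higher fell from 18.2% in the shortest to 2.90% in the longest group, and that of genes over 2-fold lower was 1.56% and 2.43%. The part of this trend in single differences was not tested. With the length and GC trends removed, 3293 genes passed as higher and 3164 as lower, with 1193 and 443 over 2-fold. Some of the lists below are given with their values after removal of both trends. They are those of DNA replication, mitosis, endothelial, mural cell, Schwann cell, BMP ligand, BMP target, FGF target, follicle, erythroid and Wnt inhibitor genes.

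**Figure D2:**
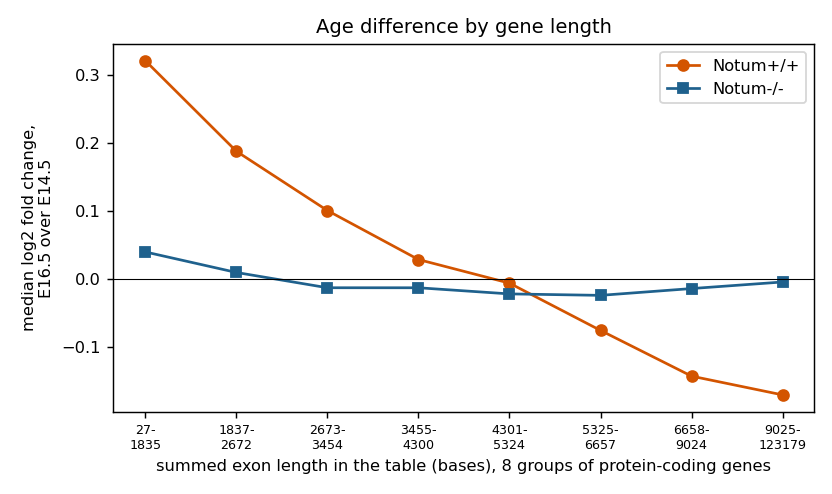
Median log2 fold change, E16.5 over E14.5, of protein-coding genes in 8 groups of about equal size by summed exon length, in Notum+/+ (circles) and Notum-/- germs (squares). In Notum+/+ germs the median falls from 0.32 in the shortest to -0.17 in the longest genes, and in Notum-/- germs it stays between -0.02 and 0.04.

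Most EK signals rose. All 20 EK genes were measured, 16 passed as higher (at least 8 in each fit that left out 1 library), 11 of them over 2-fold, 2 passed as lower, and the median log2 fold change was 1.11 against 0.00 over all genes tested. Shh (mm10 chr5:28456815-28467256, minus strand), the hedgehog ligand of the EK and later of the inner dental epithelium, was at 9.49 and 11.1 FPKM at E14.5 and at 90.7 and 84.0 FPKM at E16.5, 8.50 times higher (log2 fold change 3.08 ± 0.09, limma adjusted p = 0.00032). Msx2 (chr13:53466884-53473074, minus strand), a homeobox factor of the EK and preameloblasts, was at 4.04 and 3.97 FPKM at E14.5 and at 32.6 and 32.4 FPKM at E16.5, 8.11 times higher (2.99 ± 0.05, limma adjusted p = 0.0002). Both genes stood far apart between the ages, with replicates within a few percent of each other for Msx2.

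Other knot genes rose by less. Edar, the ectodysplasin receptor, rose from 1.27 and 1.54 to 4.79 and 4.97 FPKM, and Wnt10a, a canonical Wnt ligand, from 5.77 and 5.98 to 19.6 and 17.4 FPKM. Among the FGF ligands, Fgf3 rose 3.10-fold and Fgf9 2.70-fold. Cdkn1a, the p21 cell-cycle inhibitor that keeps knot cells from dividing, rose 2.52-fold, and Prdm1 and Slit1 rose by 1.16 and 1.46 on the log2 scale. Within the same list other signals did not follow. Fgf20, which the authors call EK-specific, fell from 1.19 and 1.22 to 0.494 and 0.431 FPKM, 38.4% of the E14.5 mean (-1.22 ± 0.20, limma adjusted p = 0.011). It rested on 19 to 51 reads a library, and the call was lost in most fits without 1 library. Bmp2 fell from 8.40 and 8.08 to 6.59 and 6.29 FPKM (-0.35 ± 0.07, limma adjusted p = 0.016), a call lost in each fit without 1 library (limma adjusted p up to 0.11). Fgf4, which is largely restricted to EKs, was at 1.69 and 1.27 FPKM at E14.5 and at 2.03 and 2.01 FPKM at E16.5 and did not pass (limma adjusted p = 0.10). Both E16.5 libraries lay on the same side of both E14.5 libraries for each of these genes, Fgf4 included.

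**Figure D3:**
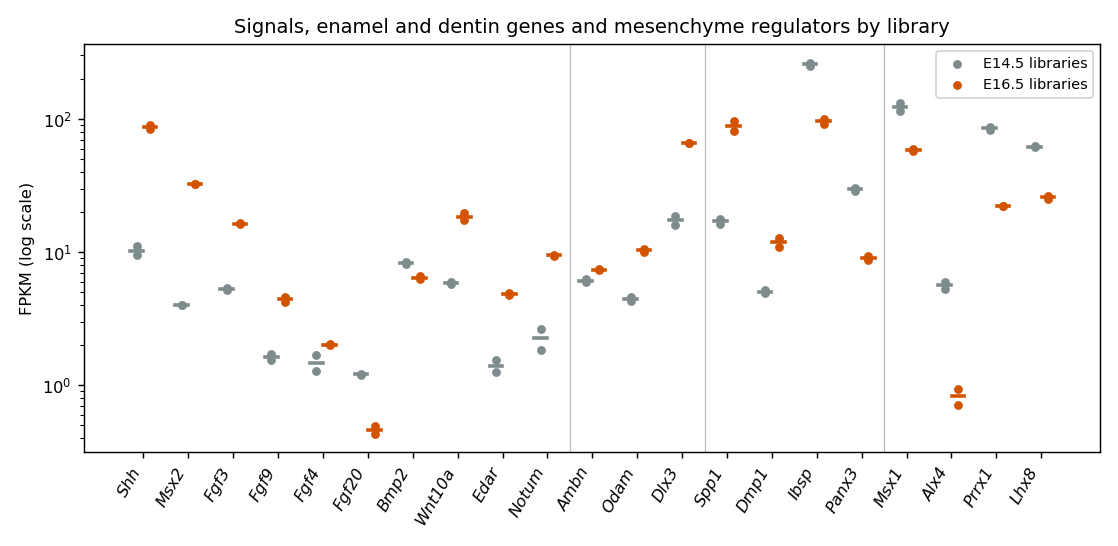
FPKM on a logarithmic axis of EK signals, enamel-side genes, dentin and bone matrix genes and mesenchyme regulators (sections from left to right) in the 2 libraries of each age, with a short line at each mean. Shh, Msx2 and Spp1 lie several-fold higher in both E16.5 libraries, while Fgf20, Ibsp, Panx3, Msx1, Alx4, Prrx1 and Lhx8 lie lower. The regulators drawn at the right were all among the lower ones, and of the 26 on their list 10 passed as higher and 13 as lower.

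Genes listed for dental epithelium rose almost throughout. The list includes general epithelial genes such as Krt5, Krt15 and Perp, which oral epithelium also expresses. The part of oral tissue in these rises was not tested. Of 26 genes of dental epithelium identity, 23 passed as higher (at least 18 in each fit without 1 library), 15 over 2-fold, and 1 passed as lower, with a median of 1.07. Krt5, a keratin of basal epithelial cells, was at 224 and 215 FPKM at E14.5 and at 1229 and 1232 FPKM at E16.5, which placed it among the 10 highest genes of the later age. Krt15 rose by 2.03, Perp, a desmosomal protein, by 1.78, and the epithelial regulator Tbx1 by 1.80 on the log2 scale. The exception was Lgr5, a receptor of R-spondins that marks epithelial progenitors, which fell from 10.5 and 10.7 to 3.75 and 3.64 FPKM (-1.50 ± 0.06, limma adjusted p = 0.00057).

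The largest rise among the dental epithelium genes was that of Vwde, a secreted von Willebrand domain protein, from 0.450 and 0.442 to 12.9 and 13.1 FPKM, 29.2 times higher (4.59 ± 0.09, limma adjusted p = 0.00024). Sp6, a zinc-finger factor needed for ameloblast maturation, was near the detection limit at E14.5 (0.194 and 0.136 FPKM) and at 2.35 and 1.80 FPKM at E16.5. Dlx3, a homeobox factor of the same lineage, rose from 18.8 and 16.0 to 65.8 and 65.7 FPKM. Satb1 and Fam83h, both linked to enamel formation, rose by 1.12 and 1.39 on the log2 scale.

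Enamel matrix genes were at low levels at both ages. Of 15 ameloblast genes 8 reached the filter, 7 passed as higher and Fam20a, a pseudokinase of the enamel secretory pathway, as lower. Odam, an enamel-associated protein, rose from 4.58 and 4.30 to 10.1 and 10.6 FPKM (2.33-fold, limma adjusted p = 0.001). Ambn, the matrix protein ameloblastin, was at 5.93 and 6.31 FPKM at E14.5 and at 7.49 and 7.29 FPKM at E16.5 (1.21-fold, limma adjusted p = 0.035, and 0.060 with the length and GC trends removed). Enam had 20 to 35 reads a library, while Amtn, Mmp20, Klk4 and Dspp, genes of the secretory and maturation stages and of dentin, had 0 to 3 reads in every library. The 250 bases before the RefSeq start (GRCm38.p6) are shown for Odam, Ambn and Vwde. They are also shown for 3 of the genes that changed most in neighbouring tissues and blood. Each window is written along its own strand and ends next to the start. In capitals, on either strand, are 4 fixed motifs: TATAAA (the TATA box), the CCAAT box, the globin promoter element CACCC and TGANTCA. The last takes any base at N, so it is wider than the AP-1 motif, which takes C or G there. Msx2 is not shown because its window lies inside the gene as the files list it, and Shh is only named.
Vwde, chr6:13224966-13225215, minus strand: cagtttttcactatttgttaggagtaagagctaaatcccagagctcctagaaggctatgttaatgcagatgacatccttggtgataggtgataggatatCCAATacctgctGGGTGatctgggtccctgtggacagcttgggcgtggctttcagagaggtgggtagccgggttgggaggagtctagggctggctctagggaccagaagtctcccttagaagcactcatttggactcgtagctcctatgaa
Odam, chr5:87884760-87885009, plus strand: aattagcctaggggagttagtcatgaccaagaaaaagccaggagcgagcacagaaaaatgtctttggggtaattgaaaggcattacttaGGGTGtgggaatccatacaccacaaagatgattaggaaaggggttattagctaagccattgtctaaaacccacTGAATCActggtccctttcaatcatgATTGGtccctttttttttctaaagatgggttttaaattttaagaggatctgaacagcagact
Ambn, chr5:88455741-88455990, plus strand: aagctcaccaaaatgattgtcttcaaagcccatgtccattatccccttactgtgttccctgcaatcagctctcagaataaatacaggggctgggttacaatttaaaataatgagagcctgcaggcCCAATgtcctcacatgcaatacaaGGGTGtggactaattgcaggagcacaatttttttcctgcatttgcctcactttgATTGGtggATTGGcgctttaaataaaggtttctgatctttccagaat
Krt13, chr11:100121567-100121816, minus strand: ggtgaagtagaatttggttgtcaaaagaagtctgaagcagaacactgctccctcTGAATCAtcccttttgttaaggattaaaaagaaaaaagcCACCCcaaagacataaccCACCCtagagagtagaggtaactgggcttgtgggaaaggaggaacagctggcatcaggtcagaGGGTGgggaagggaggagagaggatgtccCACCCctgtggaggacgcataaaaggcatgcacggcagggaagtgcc
Mmp13, chr9:7272264-7272513, plus strand: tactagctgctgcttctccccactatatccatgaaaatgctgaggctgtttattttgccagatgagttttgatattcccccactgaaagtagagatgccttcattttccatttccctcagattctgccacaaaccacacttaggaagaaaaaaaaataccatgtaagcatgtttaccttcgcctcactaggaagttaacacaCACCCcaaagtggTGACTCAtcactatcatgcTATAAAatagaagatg
Hbb-y, chr7:103853208-103853457, minus strand: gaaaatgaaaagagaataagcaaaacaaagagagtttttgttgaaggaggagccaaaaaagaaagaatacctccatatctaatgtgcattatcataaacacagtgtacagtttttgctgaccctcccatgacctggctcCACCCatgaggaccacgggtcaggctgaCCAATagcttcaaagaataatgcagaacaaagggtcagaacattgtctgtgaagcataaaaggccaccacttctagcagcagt
The TGANTCA motif lay in the windows of Odam (beginning 88 bases before the start), Krt13 (196 bases) and Mmp13 (35 bases). The base at N was A in Odam and Krt13 and C in Mmp13. Over all promoter entries, 6.87% held TGANTCA, 13.0% TATAAA, 34.5% CCAAT and 51.3% CACCC in windows of this length. Among the 10630 protein-coding genes tested that had an entry, TGANTCA was present in 4.21%. It was present in 9.79% of the 827 that rose over 2-fold and in 3.78% of the 185 that fell over 2-fold. In the same order, TATAAA was present in 6.36%, 11.5% and 11.4%, CCAAT in 35.8%, 31.0% and 34.1%, and CACCC in 58.4%, 66.3% and 58.9%. These shares are given as a description with no test. A match says only that these letters are in the window.

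Matrix genes of the papilla and bone went both ways. Of 22 odontoblast and dentin genes 20 were measured, 10 passed as higher and 5 as lower (at least 5 each without 1 library), and of 12 measured genes of mineralising bone 4 and 6. Spp1, osteopontin, was at 16.2 and 17.8 FPKM at E14.5 and at 80.6 and 96.8 FPKM at E16.5, 5.21 times higher (2.37 ± 0.11, limma adjusted p = 0.00059). Dmp1, a phosphoprotein of dentin and bone, rose 2.34-fold, and Nes, an intermediate filament of odontoblasts, by 0.77 on the log2 scale. Bglap, osteocalcin, rose from 0.336 and 0.456 to 8.63 and 9.42 FPKM, on 5 reads in the lowest library, and its near-identical neighbour Bglap2 rose in parallel, so how reads were split between these copies is uncertain. Other genes of bone and dentin were lower. Ibsp, bone sialoprotein, fell from 265 and 248 to 91.6 and 100.3 FPKM, 37.4% of the E14.5 mean (-1.42 ± 0.08, limma adjusted p = 0.00084). Panx3, a channel protein of osteoblasts and odontoblasts, fell to 30.4%, and the bone regulators Runx2 and Sp7 fell by 0.84 and 0.71 on the log2 scale. Pth1r, the receptor for parathyroid hormone, fell by 1.11. Col1a1, the main collagen of bone and dentin, was at 974 to 1194 FPKM and did not pass.

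Regulators of the dental mesenchyme went both ways. Msx2, Fgf3, Bmp4 and Lef1 are on this list and also on that of EK genes. Of 26 regulators, all measured, 13 passed as lower (at least 4 in each fit without 1 library) and 10 as higher (at least 5), 5 over 2-fold in each direction, with a median of -0.28. Prrx1, a homeobox factor of jaw mesenchyme, fell from 82.8 and 87.7 to 22.1 FPKM in both E16.5 libraries (-1.95 ± 0.05, limma adjusted p = 0.00029). Alx4 fell to 14.7% of the E14.5 mean. Msx1, which the papilla needs to pass the bud stage, fell from 132 and 115 to 59.7 and 57.2 FPKM, and Lhx8 from 61.3 and 62.2 to 24.9 and 26.6 FPKM. Pax9 fell by 0.33 on the log2 scale only. Barx1, which marks molar mesenchyme, was at 168 and 165 FPKM at E14.5 and at 206 and 190 FPKM at E16.5, a log2 fold change of 0.25 that turned to -0.21 with the length and GC trends removed. Dlx1, Dlx2 and Dlx5 rose by 0.74, 1.17 and 1.36. Dlx genes were higher while Alx4, Prrx1, Msx1 and Lhx8 were lower, and Lef1, a Wnt effector, rose from 6.03 and 5.07 to 7.05 and 7.77 FPKM.

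Of 19 measured genes of jaw position 8 passed as higher and 10 as lower (at least 4 and 7 without 1 library), 5 and 7 over 2-fold. They held the 2 deepest falls among genes that the files annotate to a transcription factor family (Hand2 and Alx1). Hand2, which marks the distal mandible, was at 3.76 and 3.27 FPKM at E14.5 and at 0.118 and 0.226 FPKM at E16.5, 4.90% of the earlier mean (limma adjusted p = 0.0014). Alx1 fell to 6.75%. Nr2f1, an orphan nuclear receptor, fell from 16.9 and 17.2 to 5.61 and 5.33 FPKM, and Hand1 went from 18 and 11 reads to 0 reads in both E16.5 libraries, below the filter. Dlx4 rose from 0.686 and 0.947 to 8.73 and 7.78 FPKM. Over all transcription factors annotated in the files, 210 of 1034 passed as higher and 269 as lower (20.3% and 26.0%, against 25.0% and 20.8% of protein-coding genes). Homeobox genes split almost evenly, with 27 higher and 28 lower of 78, whereas C2H2 zinc fingers were lower in 111 and higher in 46 of 460.

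**Figure D4:**
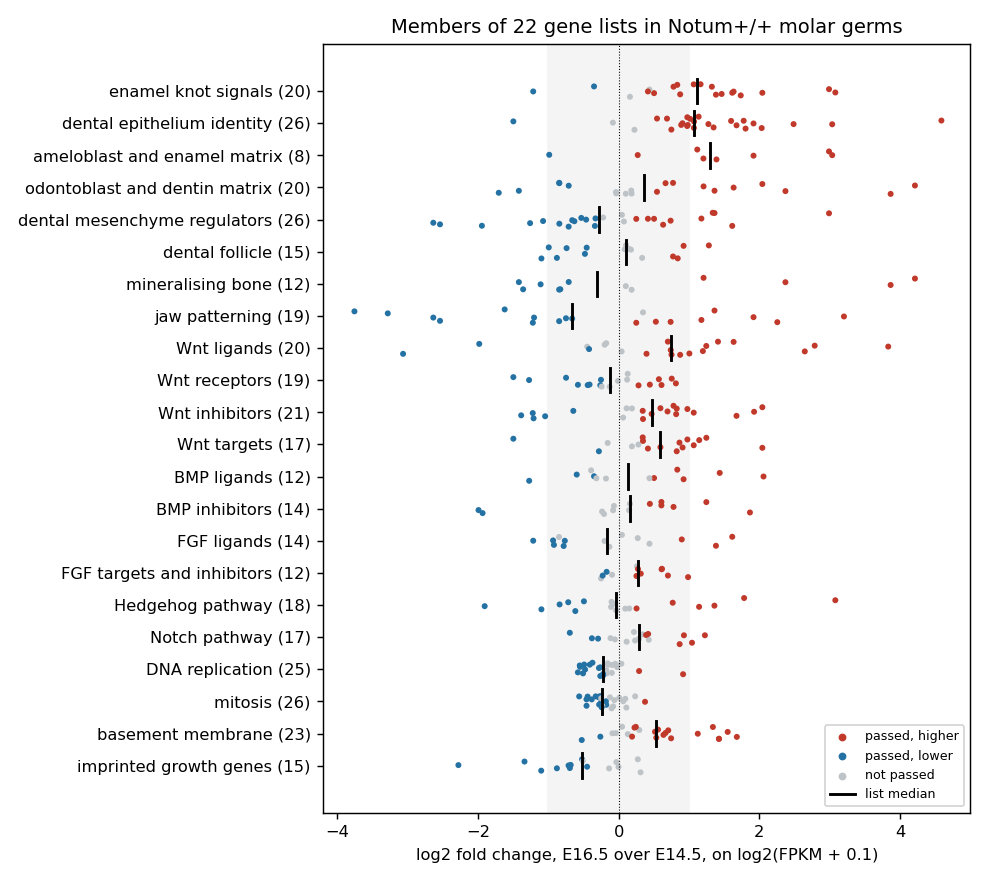
Log2 fold changes (E16.5 over E14.5) of the members of 22 gene lists in Notum+/+ molar germs, with the number of members tested in brackets. Red and blue points passed as higher and lower, grey points did not pass, black bars are list medians (1.11 for EK signals, -0.66 for jaw patterning), the dotted line is the median of all genes, and the shaded band spans 2-fold in either direction.

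Wnt ligands were more often higher, and inhibitors went both ways. Of 24 Wnt ligands and R-spondins 20 were measured, 13 passed as higher (at least 5 in each fit without 1 library) and 3 as lower. Wnt7a, an epithelial ligand, rose from 0.209 and 0.114 to 3.83 and 3.31 FPKM, Wnt3a from 1.08 and 1.88 to 9.77 and 9.17 FPKM, and the agonist Rspo4 from 1.79 and 1.83 to 13.3 and 12.8 FPKM. Wnt4 and Wnt6 rose by 1.20 and 1.24 on the log2 scale. Wnt2 and Rspo3 went the other way, Wnt2 to 10.1% of its E14.5 mean (limma adjusted p = 0.0021) and Rspo3 by -1.98. Of 21 inhibitors, 13 passed as higher and 5 as lower (11 and 5 with both trends removed, and at least 4 and 4 in each fit without 1 library), with 4 over 2-fold in each direction and a summed level of 747 FPKM at E14.5 and 705 FPKM at E16.5. Wif1, which binds Wnt ligands, rose from 27.9 and 26.6 to 101 and 106 FPKM, and Sfrp5 rose 1.67 on the log2 scale. Sfrp2, the most abundant inhibitor at E14.5, fell from 319 and 295 to 120 and 114 FPKM, and Dkk2 and Frzb fell by 1.22 and 1.05. Among 17 measured Wnt targets, 12 passed as higher (at least 5 without 1 library) and 2 as lower. Tcf7 rose by 1.14, and Ccnd1, cyclin D1, rose by 0.91, while Axin2, the usual readout of canonical Wnt signalling, was at 10.5 and 9.79 FPKM at E14.5 and at 13.0 and 11.6 FPKM at E16.5 and lay just outside the threshold (limma adjusted p = 0.0501). Receptors went both ways, with 6 of 19 higher, 8 lower and a median of -0.13, against 21.6% higher and 18.6% lower over all genes tested. Over 2-fold, 0 receptors were higher and 2 were lower.

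Hedgehog pathway genes moved in both directions, and whether any of them followed Shh was not tested. Ptch1 and Hhip, both induced by hedgehog signalling and limiting it, rose by 0.77 and 1.14 on the log2 scale, and Gli1 by 0.25 (0.03 with the length and GC trends removed). The co-receptors Cdon, Boc and Gas1, which hedgehog signalling represses, fell by 1.10, 0.84 and 0.62. Ihh, the ligand of cartilage and bone, fell from 1.32 and 1.39 to 0.363 and 0.225 FPKM. Over the 18 genes 6 passed as higher and 6 as lower, so the list as a whole had no direction.

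BMP, FGF and Notch genes went both ways. Of 12 BMP ligands 5 passed as higher and 3 as lower, against 21.6% and 18.6% of all genes tested. Their median of 0.13 turned to -0.05 with both trends removed. Bmp4 and Bmp7 rose by 0.50 and 0.83, Gdf7 rose by 2.06, and Bmp6 fell by 1.27 on the log2 scale. Of 11 BMP targets 5 passed as higher and 4 as lower, with a median of 0.21 that turned to -0.19 with both trends removed, and Id1 and Id4 rose by 1.29 and 1.21. Sostdc1, an inhibitor of BMP and Wnt signalling around the knots, rose from 107 and 109 to 184 and 187 FPKM, whereas the mesenchymal BMP inhibitors Bmper and Grem1 fell by 1.99 and 1.94. Fgf10, the papilla ligand, was at 6.21 and 6.46 FPKM at E14.5 and at 6.56 and 6.52 FPKM at E16.5, with no difference detected. Fgf7 and Fgf18 fell by 0.93 and 0.92, while the FGF response genes Etv4, Spry2 and Spry4 rose by 0.99, 0.61 and 0.61. Of 12 FGF targets and inhibitors 7 passed as higher and 2 as lower, 0 of them over 2-fold. With both trends removed 4 passed as higher and 1 as lower, with a median of 0.13. In the Notch pathway Lfng, Jag2 and Nrarp rose by 1.22, 1.04 and 0.93, and Rbpj, the nuclear effector, fell by 0.70. Inhba, the activin subunit of the papilla, fell from 23.6 and 25.5 to 16.1 and 15.5 FPKM, whereas Inhbb rose from 0.546 and 0.510 to 3.32 and 2.96 FPKM.

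Cell-cycle genes differed by less than 2-fold. Of 25 DNA replication genes measured, 13 passed as lower and 2 as higher, and of 26 mitosis genes 14 passed as lower and 1 as higher (medians -0.22 and -0.24). Without 1 library the lower calls of both lists went down to 0. Mcm4, a helicase subunit, went from 53.2 and 53.4 to 35.3 and 37.4 FPKM, and Top2a from 63.7 and 64.4 to 52.9 and 52.6 FPKM. With the length and GC trends removed the medians were -0.22 and -0.10. Cdkn1c, an imprinted cell-cycle inhibitor and the most abundant of its class, fell from 355 and 361 to 219 and 217 FPKM, against the rise of Cdkn1a. It was part of a wider fall: 9 of 15 imprinted growth genes passed as lower (at least 4 in each fit without 1 library). Peg10 fell from 64.4 and 67.2 to 13.8 and 13.1 FPKM, and Plagl1 and Grb10 by 1.34 and 1.10 on the log2 scale. H19 was between 1094 and 1498 FPKM and did not pass.

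Most basement membrane genes rose. Of 26 basement membrane genes 23 were measured, 16 passed as higher (at least 5 in each fit without 1 library) and 2 as lower. Col7a1 and Col17a1, which anchor epithelium to the matrix, rose by 1.68 and 1.43 on the log2 scale, the laminin chains Lamc3, Lamb3 and Lama1 by 1.55, 1.42 and 1.34, and Col4a1 and Col4a2 by 0.64 and 0.53. P-cadherin (Cdh3) and Nectin4 rose by 1.23 and 1.93, and N-cadherin (Cdh2), a mesenchymal cadherin, fell to 49.9% of its E14.5 mean. In the stroma, Kera, a keratan sulfate proteoglycan, fell from 11.1 and 11.5 to 1.96 and 2.10 FPKM, and Lox, which crosslinks collagen, from 87.1 and 91.8 to 45.9 and 45.2 FPKM. Collagen chains as a family did not lean either way (14 higher and 12 lower of 37). Replication-dependent histone genes were higher in 8 and lower in 1 of 40, against 25.0% and 20.8% of protein-coding genes. Their median of 0.22 ranged from 0.01 to 0.46 over the alternative settings. Cytosolic ribosomal protein genes, which are short, were higher in 33 and lower in 1 of 76, with a median of 0.28. Over the shortest group of protein-coding genes, 41.0% passed as higher and 6.25% as lower, with a median of 0.32. Of 15 dental follicle genes 4 passed as higher and 6 as lower, 1 over 2-fold in each direction, with a median of 0.10 (-0.09 with both trends removed). Igf1 and Postn fell by 1.10 and 0.74, Aldh1a2 fell to 50.1% of its E14.5 mean, and Acta2 rose by 0.84. Of 27 axon guidance genes 14 passed as lower (at least 4 without 1 library) and 5 as higher (at least 0), 1 over 2-fold in each direction, and Sema3d (-1.35) and Epha3 (-0.93) were among the lower.

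Genes known from stratified oral epithelium rose far more than most. All 14 measured genes of the 16 on that list passed as higher, each over 2-fold (at least 10 in each fit without 1 library), with a median of 3.85. Krt13 (chr11:100117327-100121566, minus strand), a keratin of the suprabasal oral lining, was at 8.96 and 8.95 FPKM at E14.5 and at 1009 and 1075 FPKM at E16.5, 116 times higher (6.85 ± 0.06, limma adjusted p = 2.2e-05). Its partner Krt4 was at 4.44 and 4.60 FPKM and then at 306 and 316 FPKM, 68.8 times higher. The genes Cnfn, Mt4, Fam25c and Crct1, expressed in differentiated stratified epithelium and not on the list, had 3 or fewer reads in each E14.5 library, and rose at least 205-fold, 79.0-fold, 54.8-fold and 57.7-fold over the floor of 3 reads a library. Krt1 and Krtdap, of differentiating keratinocytes, rose by 3.86 and 4.24 on the log2 scale. The summed level of this list was 69.4 and 75.2 FPKM at E14.5 and 1867 and 1970 FPKM at E16.5. These rises went with those of Krt5, Krt15 and Perp above, which oral epithelium also expresses, and the part of oral tissue in them was not tested. Of 27 keratin genes tested, 22 passed as higher.

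Osteoclast genes rose as a set. All 9 passed as higher (at least 4 in each fit without 1 library), 8 of them over 2-fold. Acp5, tartrate-resistant acid phosphatase, went from 9.24 and 8.88 to 83.1 and 91.1 FPKM (9.62-fold), and Ctsk, the collagen-degrading cathepsin, from 41.0 and 42.3 to 268 and 290 FPKM (6.70-fold). Mmp13, a collagenase of bone turnover that is not on the osteoclast list, was at 0.497 and 0.436 FPKM at E14.5. At E16.5 it was at 40.3 and 44.9 FPKM, 91.3 times higher (6.24 ± 0.10, limma adjusted p = 0.00016). Mmp9 rose from 35.6 and 33.9 to 134 and 133 FPKM. Macrophage genes were mixed, with 7 of 16 higher and 2 lower, and the mast cell proteases Tpsb2 and Mcpt4 rose 21.2-fold and 10.9-fold on 7 reads or more.

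Muscle, nerve and vessel-wall genes were also higher. Of 17 skeletal muscle genes 15 passed as higher (at least 9 without 1 library), with Ckm, muscle creatine kinase, at 0.940 and 0.870 FPKM and then at 15.5 and 14.7 FPKM. Of 20 sensory neuron genes 15 passed as higher (at least 8 without 1 library) and Gap43, of growing axons, as lower (-0.50). Nefm, a neurofilament chain, rose from 3.45 and 3.19 to 18.4 and 18.8 FPKM, and Nefh from 0.582 and 0.493 to 5.39 and 5.08 FPKM. Of 15 Schwann cell genes 12 passed as higher (at least 4 without 1 library), 6 of them over 2-fold. With both trends removed 11 of the Schwann cell genes passed as higher and 2 as lower. Of 9 pericyte and mural cell genes 7 passed as higher, 4 of them over 2-fold, and 0 as lower, with a median of 0.68. With both trends removed 6 of them passed as higher and 2 as lower. Among the mural cell genes, Kcnj8 and Ndufa4l2 rose by 2.40 and 3.29 on the log2 scale. Endothelial genes barely differed, with 5 of 14 higher and 2 lower (2 and 3 with both trends removed), a largest difference of -0.65 (Emcn), and summed levels of 171 to 190 FPKM over the 4 libraries.

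**Figure D5:**
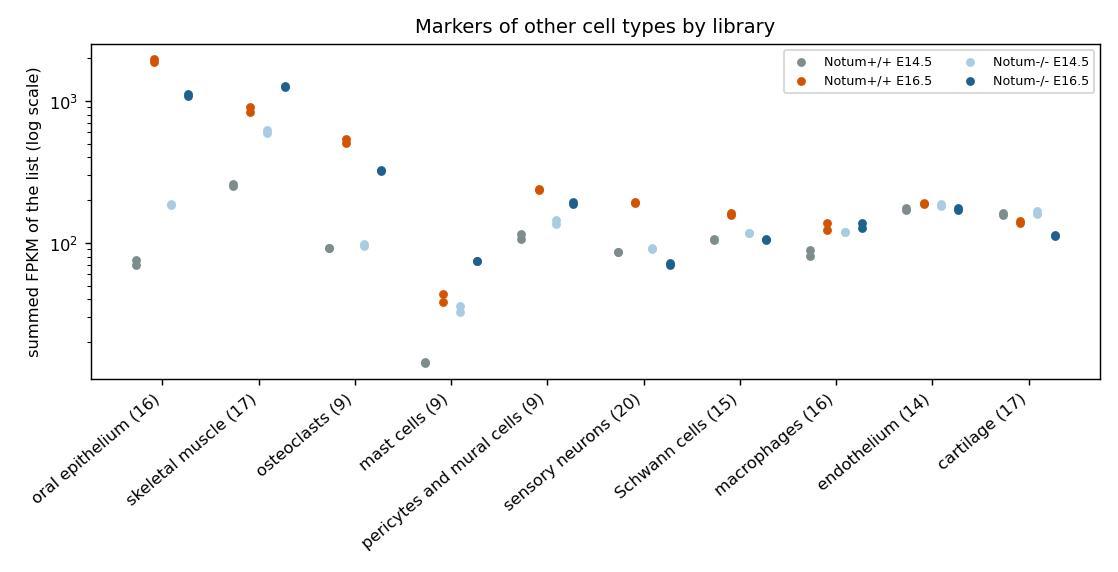
Summed FPKM (logarithmic axis) of marker lists of other cell types in each library, with the number of listed genes in brackets and 2 points a group. In Notum+/+ germs oral epithelium, skeletal muscle and osteoclast markers lie several-fold higher at E16.5, and endothelial markers do not. Sensory neuron and Schwann cell markers rise in Notum+/+ but not in Notum-/- germs.

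Most cartilage genes and the embryonic globins were lower. Of 16 measured cartilage genes 11 passed as lower (at least 5 without 1 library), 7 over 2-fold, and 5 as higher. Matn1, a matrilin of cartilage, went from 8.17 and 8.64 to 0.0789 and 0.0190 FPKM, on 1 read in the lowest library, and Col2a1 from 30.9 and 29.4 to 7.46 and 6.92 FPKM. Sox9 and Matn4, which other tissues of the germ also express, rose by 1.07 and 2.36 on the log2 scale. Hbb-y (chr7:103851749-103853216, minus strand), the embryonic beta-like globin of primitive red cells, fell from 185 and 201 to 0.624 and 0.180 FPKM (10 and 3 reads), 480 times lower (limma adjusted p = 0.00074), and the embryonic Hba-x from 13.4 and 11.7 to 0.210 and 0.162 FPKM, 67.2 times lower. Hbb-bh1 had 0 reads in both E16.5 libraries, at least 4.57-fold lower. The adult globins Hbb-bs and Hba-a1 were at 268 and 320 and at 265 and 302 FPKM at E14.5 and rose 2.04-fold and 1.70-fold, with reads shared among near-identical copies. Neither of these rises passed without E16.5 replicate 1 or without replicate 2 (limma adjusted p up to 0.076 for Hbb-bs and 0.088 for Hba-a1), and that of Hba-a1 also did not pass without E14.5 replicate 1 or with both trends removed. Of 11 measured erythroid genes 5 passed as higher and 4 as lower, 3 and 5 with both trends removed, and at least 0 and 3 without 1 library.

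Among stress and immediate early genes, 13 of 20 passed as higher (at least 4 without 1 library) and 1 as lower. Junb rose from 3.03 and 2.43 to 11.5 and 10.4 FPKM and Fos by 1.11, while Egr3 fell by 1.35 on the log2 scale. Mitochondrial reads were 1.87% and 1.94% of the E14.5 and 1.45% and 1.59% of the E16.5 libraries. The part of handling or RNA quality in these genes was not tested.

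The 2 genotypes share no library, so the same ages could be set side by side. Of the 1397 genes over 2-fold higher in Notum+/+ germs, 1205 (86.3%) had a positive log2 fold change in Notum-/- germs, 617 passed there as higher and 25 as lower. Of the 450 lower genes, 369 (82.0%) were also lower in sign, 163 passed as lower and 4 as higher, where 6.52% and 3.61% of all tested genes passed as higher and lower in Notum-/- germs. The median of the higher genes was 1.56 in Notum+/+ and 0.80 in Notum-/- germs, and since the genes were chosen in Notum+/+ germs the latter would be nearer to 0 by that choice alone. Shh, Msx2 and Vwde passed there too with log2 fold changes of 2.63, 2.16 and 3.44, as did Hbb-y and Matn1 with -6.53 and -5.15. Sensory neuron genes went the other way there, with 8 of 20 passing as lower and 3 as higher and a median of -0.77 against 1.18. Schwann cell genes did not rise there either, with 4 of 15 passing as lower and 0 as higher. Their median was -0.17 in Notum-/- and 0.80 in Notum+/+ germs. The interaction of age and genotype passed for 3458 genes (19.5%), and for 810 to 3052 in fits without 1 of the 8 libraries, fewest without Notum-/- E16.5 replicate 2.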

How the data were processed

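Molar germs of Notum+/+ and Notum-/- embryos at E14.5 and E16.5 were sequenced by the authors as poly-A selected, random-primed, paired-end libraries. Per the labels, reads were mapped to mm10 with HISAT2 (version 2.0.5) and counted per gene with featureCounts (version 1.5.0-p3), and whether counting used strand is not given in the sources used here. The authors turned the counts into FPKM with the length of each gene, and deposited these. Groups and replicate numbers were taken from the sample labels.

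From the deposited FPKM and gene length the reads were rebuilt, and 100% of values came out whole within 0.05 of a read. Each library's scale equals a median-ratio size factor times the mean total, so FPKM can be compared between libraries, and 3 reads per library were used as the detection floor. Intervals and floors cover counting error only. E16.5 was compared with E14.5 in R 4.3.3 by limma (version 3.58.1, lmFit, eBayes, variance trend) on log2(FPKM + 0.1), with Benjamini-Hochberg adjustment over the 17769 genes over a mean of 0.3 FPKM. Fold changes are on that scale and understate those of low genes, and ratios are of mean FPKM. Errors are standard errors (SE). An interaction term over all 8 libraries compared the ages between genotypes. The method was tested on simulated data.

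The members and the 47 gene lists were chosen with earlier results of these data known. Named were the 15 largest rises and falls, up to 8 passing and 4 abundant members of each list (all members of the EK, enamel, dentin, mesenchyme and SCPP lists), the 10 highest genes of each age, Notum and sex-linked genes. Some genes that this rule selects are not reported here. Of 154 named genes, 37 share bases with another listed gene over the filter, so that their reads may be mixed. Alternatives covered the pseudocount, filter, scale, variance trend, replicate block, rebuilt reads (voom), biotype, chromosomes X and Y, gene length, GC content and each library left out. Tables of the authors' own comparisons were not used.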

Additional observations from a re-analysis of the deposited data

Results flagged for a closer look

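The change from E14.5 to E16.5 differed between genotypes, by the interaction term and by more than 2-fold, for 41 of the 154 genes named, and for 685 of 17769 genes tested. Each value is the log2 fold change over age in Notum-/- germs minus that in Notum+/+ germs. No cause was tested, and E14.5 and E16.5 pools of the genotypes also differed in sex composition.

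Genes of stratified epithelium rose less in Notum-/- germs: Krt13 (-3.95), Krt4 (-3.33), Fam25c (-3.77), Cnfn (-2.82), Mt4 (-2.63), Crct1 (-2.40), Krtdap (-1.84), Krt1 (-1.31), Krt5 (-1.33), Krt15 (-1.24) and Krt14 (-1.10). The list of oral epithelium already stood higher in Notum-/- germs at E14.5, at 185 and 188 against 69.4 and 75.2 FPKM in Notum+/+ germs. Other genes of tooth epithelium did the same: Sp6 (-1.55), Wnt7a (-1.58), Dlx4 (-1.25), Vwde (-1.14), Inhbb (-1.11) and Nectin4 (-1.001). Neural genes turned in direction: Nefm (-4.24) and Nefh (-3.81), where Nefm changed by 2.45 in Notum+/+ and by -1.78 in Notum-/- germs. Of other tissues, Mmp13 (-2.61), Bglap (-3.15), Tpsb2 (-2.10), Ndufa4l2 (-2.11), Kcnj8 (-1.40), Matn4 (-1.22), Ckm (-1.09), Hbb-bs (-1.14) and Hba-a1 (-1.15) changed less upward.

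Genes that fell in Notum+/+ germs fell less in Notum-/- germs, or did not fall: Alx1 (2.79), Kera (2.02), Wnt2 (1.499), Fgf20 (1.42), Peg10 (1.36), Alx4 (1.28), Prrx1 (1.27), Panx3 (1.22), Plagl1 (1.09), Bmper (1.07), Grem1 (1.07), Sema3d (1.03) and Hbb-y (2.21). Fgf20, for example, had a log2 fold change of -1.22 in Notum+/+ and 0.20 in Notum-/- germs.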

How the results depend on the processing

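Of 149 named genes past the adjusted p, 106 still passed without E16.5 replicate 1 and 106 without replicate 2, where the lone library is assumed to vary like the others, and none of the 149 changed sign in any fit without 1 library. Without 1 library, the genes past the adjusted p ranged from 580 to 2901 higher and from 270 to 1875 lower, and those over 2-fold from 472 to 1423 higher and from 169 to 389 lower; the interaction count ranged from 810 to 3052. With a pseudocount of 1 FPKM, 726 genes were over 2-fold higher and 191 lower. Over 2-fold lower genes numbered 295 with a mean above 1 FPKM and 274 among protein-coding genes. Same-numbered libraries did not deviate together (correlation 0.03), so the numbers do not pair the samples; with the replicate block 3659 genes were higher and 3144 lower, and the interaction passed for 2143 genes. With the gene-length and GC trends removed, an alternative chosen after seeing the data, the interaction passed for 2152. Signs turned only for small differences: Barx1 (-0.13 with the GC trend removed, -0.21 with both removed), Col1a1 (-0.10) and Gli1 (-0.033) with the GC trend removed, H19 (-0.025) with both removed, and Fgf10 (-0.055) on the TPM scale. The cause was not tested. Of 94 counts of list members in 1 direction, 68 and 70 moved by over 1.5 times without E16.5 replicate 1 and 2, 20 and 21 without E14.5 replicate 1 and 2, and 21 with the GC trend removed. Genes of few reads, such as Fgf20, Matn1 and Bglap, are limited by depth.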

Other observations

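Some gene groups were picked after their values were seen, and are given as values only. The 13 tested genes of the chromosome 3 cluster that builds the cornified envelope (the Lce and Sprr families with Lor, Crct1, Crnn, Rptn and Tchh) all passed as higher and over 2-fold at E16.5, with a median log2 fold change of 4.44 in Notum+/+ and 2.12 in Notum-/- germs. The 7 tested desmosomal cadherins (Dsc and Dsg genes), which hold epithelial cells together, passed as higher, 6 of them over 2-fold, and their median of 1.13 was the same in Notum-/- germs. Of 10 tested Serpinb genes, intracellular protease inhibitors of epithelia, 7 passed as higher and each of these was over 2-fold.

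Among transcription factor families of 20 or more tested genes, set against 25.0% higher and 20.8% lower over protein-coding genes, bZIP factors had 19 higher and 7 lower of 42, forkhead factors 12 and 8 of 28, ETS factors 7 and 3 of 20, bHLH factors 20 and 12 of 63, and MYB-domain genes 2 and 7 of 23. Annotated snoRNA genes, which poly-A selection captures poorly, had 9 higher and 33 lower of 170 tested.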
